A study of Bos taurus with 15 samples.

Results

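The distal end of bovine chromosome 29 carries the genes IGF2 and KCNQ1 and the imprinted genes around them. It was taken here as the window from 49000000 to 50800000 of chromosome 29 in UMD3.1 coordinates, and every CpG position listed in that window entered. The window, called the domain below, held 88367 of the 27136487 positions listed in the 15 files of the series. It was divided into 1800 bins of 1 kb, of which 1773 held a read call and 1469 held at least 30 calls in liver and at least 30 in mammary gland. A bin was called intermediate when its pooled methylation lay between 35% and 65% in both tissues, and 41 of the 1469 bins were. The window is the broad span of the domain, not a set of annotated genes. Of a list of 25 genes of the domain, 24 were found in the RefSeq table of the later assembly ARS-UCD2.0, which gives their order and not their place in UMD3.1. No bin could therefore be assigned to a gene, an exon, an intron or a UTR.

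In mammals, an imprinted gene is expressed from the chromosome of a single parent. The choice is kept by imprinting control regions, stretches of CpG-rich DNA that are methylated on the chromosome from either the mother or the father and free of methylation on its partner. This domain is known to hold a control region near H19 and IGF2, methylated on the paternal chromosome, and another inside KCNQ1, methylated on the maternal chromosome. IGF2 encodes a fetal growth factor, CDKN1C an inhibitor of the cell cycle, PHLDA2 a restraint on placental growth and KCNQ1 a potassium channel. Because the chromosomes of both parents are read together, such a control region is expected at a level near 50% in every tissue and animal. In bulk tissue, a level near 50% from alleles in opposite states and the same level from a mixture of cells cannot be told apart.

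The animals were Holstein cattle whose dams were either cooled or heat stressed during the last 6 to 7 weeks of gestation. The dams of both groups had shade, and the cooled dams also had fans and soakers. Liver came from newborn bull calves, 5 of cooled dams (IUCL-B) and 4 of heat-stressed dams (IUHT-B). Mammary gland came from heifers biopsied on day 21 of their first lactation, 3 of cooled dams (IUCL-H) and 3 of heat-stressed dams (IUHT-H). Tissue, sex and age therefore changed together between calves and heifers and cannot be told apart. Each animal gave 1 library of reduced representation bisulfite sequencing (RRBS), in which DNA is cut by restriction enzymes and short fragments are converted so that unmethylated cytosines read as thymine.

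Calls were spread differently in the tissues. In the domain the 6 heifer libraries covered between 27829 and 44584 positions with a median of 1 call per position. The 9 calf libraries covered between 972 and 23923 positions, and the widest were IUCL-B 4, with 11323, and IUCL-B 5, with 23923. The 10 deepest positions held 12.2% of the domain's calls in IUHT-B 3 and 20.6% in IUHT-B 5. In a single calf, 95.5% ± 1.82 (SD, n = 9) of the domain positions with at least 6 calls were methylated in all or in none of their calls, against 52.3% ± 3.63 (SD, n = 6) in a single heifer. Only 1.19% ± 1.42 of such positions in a calf lay between 20% and 80%, against 22.6% ± 3.13 in a heifer. A calf's value at such a position was thus nearly always 0% or 100%. The rest of chromosome 29 showed the same contrast, with 93.3% ± 1.59 of calf positions and 34.3% ± 3.07 of heifer positions at 0% or 100%.

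**Figure D1:**
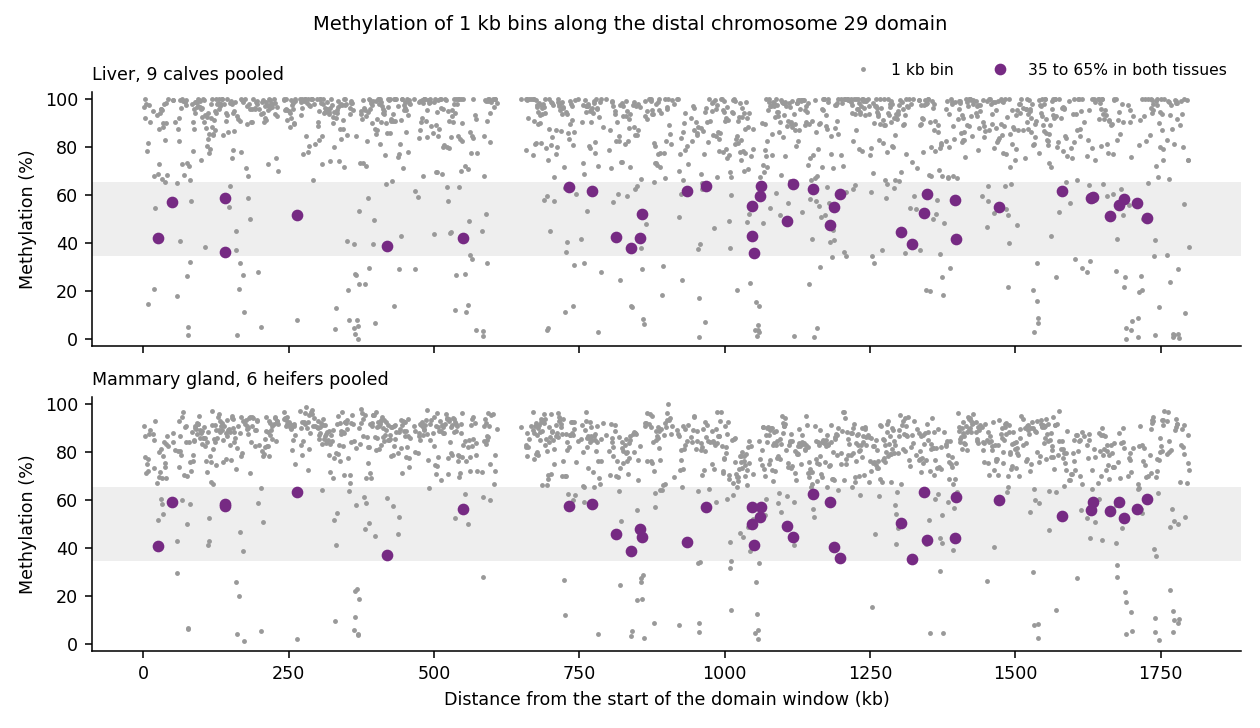
Methylation (%) of the 1469 bins with at least 30 calls in each tissue, plotted against distance from the start of the domain window (kb), with calls pooled over 9 calves (top) and 6 heifers (bottom). Most bins lie near the top of both panels, and the 41 bins within the grey band of 35 to 65% in both tissues (purple) are scattered along the window with more of them in its second part.

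The domain was mostly methylated, and in mammary gland it was more methylated than the rest of the chromosome. Pooled over calls, the domain level of the heifers was 80.1% ± 1.62 (SD, n = 6) and that of the rest of chromosome 29 was 73.1% ± 1.39. The domain was higher in 6 of 6 heifers, by 5.70 to 7.52 points, with a mean difference of 7.08 points (p = 0.0312, two-sided exact sign-flip permutation test, the smallest p that 6 animals allow). The Benjamini-Hochberg adjusted p over the 6 exact tests of the domain was 0.0938. Where only positions with more than 10 reads were used, the difference was 16.6 points, but it rested on only 24 to 166 domain positions per heifer. Among the 28 windows of the same length along chromosome 29, the domain ranked 26th from the lowest in its median mammary level over bins, 83.2%, and the adjoining window stood close to it at 82.8%. In liver, with a median of 90.5%, it ranked 16th. In liver the domain level was 80.4% ± 3.42 (SD, n = 9) against 77.4% ± 1.74 in the rest, and it was higher in 7 of 9 calves, with a mean difference of 3.06 points (exact p = 0.0742, adjusted p = 0.111). The exceptions were IUHT-B 3, with a difference of -5.47 points, and IUHT-B 5, with -0.0248 points, the calves with the most calls in few positions. When every position was weighted alike, the domain was higher in 9 of 9 calves, by 5.37 points (exact p = 0.00391). Without IUHT-B 3 the pooled difference was 4.13 points (exact p = 0.0156).

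Intermediate bins made up 2.79% of the domain, or 41 of 1469, and 3.79% of the rest of chromosome 29, or 539 of 14204. In mammary gland alone 162 domain bins (11.03%) lay between 35% and 65%, against 17.2% of the rest, and in liver alone 165 (11.2%) did, against 13.6%. Of the 162 bins in this range in mammary gland, 25.3% were also in it in liver, and in the rest of the chromosome 22.1% were. Of the 165 bins in this range in liver, 24.8% were also in it in mammary gland, and in the rest 27.9% were. Among the same 28 windows, the domain ranked 9th from the lowest in its share of intermediate bins and lowest in the share of bins between 35% and 65% in mammary gland. The adjoining window ranked next in that mammary share, at 12.2% against 11.03% in the domain. Fully methylated bins were more common instead, with 249 domain bins (17.0%) above 90% in both tissues, against 11.8% of the rest. Bins below 10% in both tissues made up 1.57% of the domain, 23 bins, and 1.99% of the rest.

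**Figure D2:**
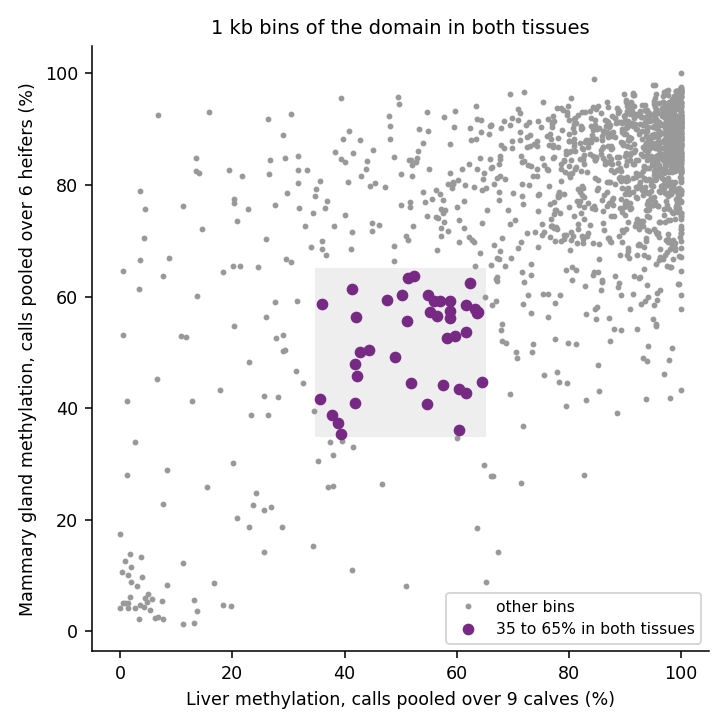
Methylation of each domain bin in liver (x axis, %, calls pooled over 9 calves) and in mammary gland (y axis, %, calls pooled over 6 heifers). The 41 bins inside the grey square of 35 to 65% (purple) are few beside the bins that are high in both tissues, and Pearson's r across the 1469 bins was 0.642.

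The share of bins near 50% depended on how many calls a bin held. Over bins with at least 10 calls in the animal, the share between 35% and 65% was 12.4% ± 1.65 in the domain and 17.1% ± 1.38 in the rest of the chromosome (SD, n = 6 heifers). The share was lower in the domain in 6 of 6 heifers, with a mean difference of -4.66 points (exact sign-flip p = 0.0312, the smallest possible, adjusted p = 0.0938). The domain was read more densely, however, with a median of 30 to 49 calls per such bin in a heifer against 18 to 22 in the rest, and 55 listed positions per bin against 26. Over bins with 20 to 40 calls in the heifer, a comparison chosen after seeing the data, the share was 14.5% ± 3.11 in the domain and 14.5% ± 1.23 in the rest, a difference of 0.0134 points (exact p = 1). Over bins with more than 40 calls, also chosen after seeing the data, it was 7.65% ± 1.66 in the domain and 11.3% ± 1.49 in the rest, lower in 6 of 6 heifers with a difference of -3.61 points (exact p = 0.0312, the smallest possible). These bins held a median of 62 calls in the domain and 61.2 in the rest. The gap was therefore absent among bins with 20 to 40 calls and present among deeper ones. With a minimum of 20 calls and no upper limit the difference was -2.61 points, and with a minimum of 5 calls it was -7.02 points. In liver the shares were 7.83% ± 2.28 in the domain and 8.02% ± 2.12 in the rest (SD, n = 9 calves), and the difference of -0.188 points, below 0 in 5 of 9 calves, was within the spread between calves (exact p = 0.68). With every position weighted alike it was -0.905 points (exact p = 0.0391), and with 20 to 40 calls per bin it was 0.584 points (exact p = 0.469), so no direction is given for liver. In the pooled data, the both-tissue share was higher in the domain at 30 to under 100 mammary calls (5.74% of 244 bins against 4.12% of 7872) and about equal at 100 to under 200 calls (3.62% of 414 against 3.52% of 3609) and at 200 to under 400 calls (2.17% of 553 against 2.35% of 1915). Over bins with 400 calls or more it was 0 of 258, which allows up to 1.16%, against 5.32% of 808 in the rest. In mammary gland alone, the shares in these 4 classes were 16.8%, 15.2%, 8.50% and 4.26% in the domain and 21.6%, 13.1%, 8.25% and 14.4% in the rest. Within these classes, the both-tissue share of the domain was clearly below the rest only at 400 calls or more. There the share of the rest was higher than in its class of 200 to under 400 calls. In mammary gland alone the domain was also lower at 30 to under 100 calls. The classes were filled differently, since 244 of 1469 domain bins and 7872 of 14204 bins of the rest held 30 to under 100 calls. These pooled shares were not tested.

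**Figure D3:**
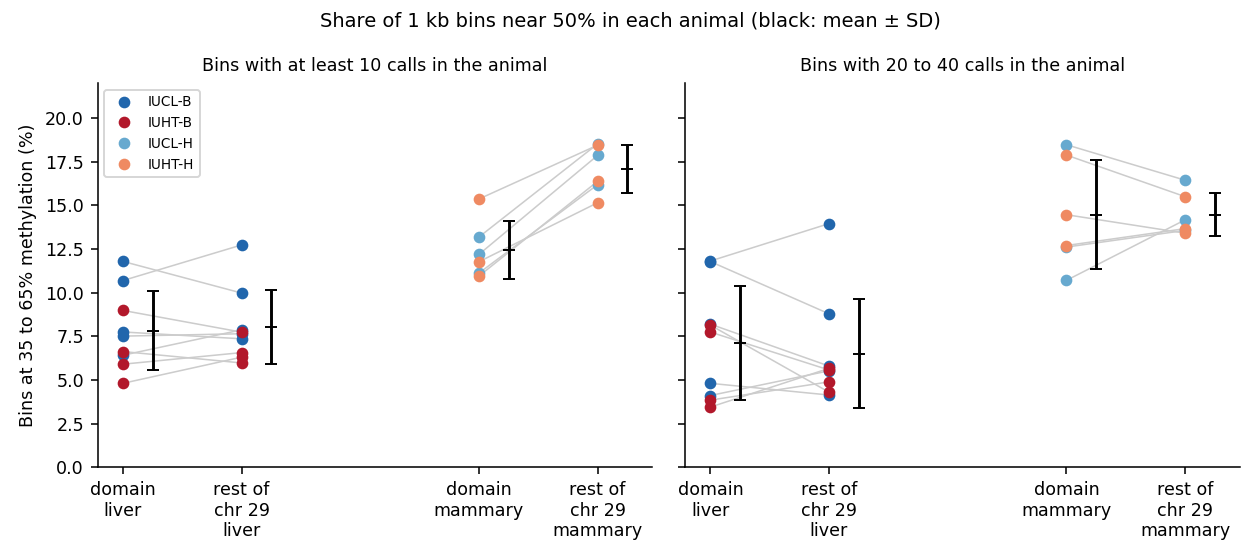
Percent of 1 kb bins between 35 and 65% methylation in each animal (points joined by a line), in the domain and in the rest of chromosome 29, for bins with at least 10 calls (left) and with 20 to 40 calls (right). Black marks are the mean ± SD over 9 calves or 6 heifers. The heifers' gap on the left, 12.4% against 17.1%, is absent on the right, 14.5% against 14.5%; bins with more than 40 calls, where it was present, are not drawn.

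Intermediate bins were spread unevenly over most of the window. In segments of 100 kb, the segment from 50300000 held 6 intermediate bins of 85 (7.06%), that from 50600000 held 5 of 75 (6.67%), that from 50100000 held 6 of 97 (6.19%), that from 50000000 held 5 of 96 (5.21%) and that from 49800000 held 4 of 85 (4.71%). The segments from 49300000, 49600000 and 50200000 held none of 96, 44 and 92 bins. Those from 50400000, 50500000 and 50700000, near the distal end, held 1 of 86, 1 of 86 and 2 of 75. The share in the rest of chromosome 29 was 3.79%. Runs of neighbouring intermediate bins no more than 3 kb apart were few, and 9 of the 41 bins lay in 4 such runs. The longest, chr29:50046000-50050999, held 3 bins, and chr29:49139000-49140999, chr29:50061000-50062999 and chr29:50396000-50398999 held 2 each.

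A stretch of lowered methylation that held 2 intermediate bins lay at chr29:49854000-49861999. It was chosen after its values were seen, and such stretches were not counted elsewhere on chromosome 29. The bins that start at 49853000 and 49862000, on its proximal and distal sides, were methylated at 82.6% and 92.1% in mammary gland and at 96.5% and 92.9% in liver. Between them, mammary methylation fell to 48.0% at 49854000, 26.1% at 49855000, 27.7% at 49856000 and 18.7% at 49857000, was 44.5% at 49858000 and 28.8% at 49859000, and was 0% at 49860000 and 2.41% at 49861000. The bin at 49860000 held only 25 mammary calls in all, which allows up to 12%. In liver the same 8 bins were at 42.0%, 37.9%, 66.5%, 28.9%, 51.9%, 8.33%, 7.14% and 6.25%. The pooled levels of both tissues therefore showed a dip over these bins, less even in liver. They were partly methylated on its proximal side and low at its distal edge. The liver levels at 49857000, 49859000 and 49861000 rested on only 2 calves each with at least 5 calls. Those at 49855000 and 49860000 rested on 3 such calves each, and the bin at 49860000 held only 28 liver calls. In mammary gland, 2 heifers at 49860000 and 3 at 49861000 had at least 5 calls. The low distal edge thus came from few animals in both tissues.

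A second stretch lay further along the chromosome, where the bins at 50046000, 50047000 and 50050000 were at 50.0%, 57.3% and 41.5% in mammary gland and at 42.8%, 55.2% and 35.7% in liver. The bins between them, at 50048000 and 50049000, stood at 71.1% and 52.1% in mammary gland and at 79.1% and 87.4% in liver. Beyond 50050000 the bin at 50051000 was nearly unmethylated in both tissues, at 4.74% in mammary gland and 3.57% in liver. The bins at 50052000 and 50053000 held few calls, 21 and 39 in mammary gland, and stood there at 66.7% and 79.5%. Low methylation returned from 50054000 to 50058000, with mammary levels of 25.9%, 12.6%, 2.21%, 5.71% and 34.0% and liver levels of 15.4%, 0.901%, 3.45%, 5.77% and 2.57%. The bins at 50059000 and 50060000 were at 84.8% and 77.3% in mammary gland and at 13.6% and 67.6% in liver, and the pair at 50061000 and 50062000 was at 52.9% and 57.2% in mammary gland and at 59.7% and 63.8% in liver. Intermediate bins thus lay on both sides of bins with low pooled methylation. Among the bins given here with both levels, the tissues differed most at 50059000. Its liver level came from 125 calls, with only 2 calves at 5 calls or more. The liver levels at 50048000, 50049000, 50054000, 50055000 and 50056000 also rested on only 2 such calves each.

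Single heifers varied within the intermediate bins, whose pooled range was set by the rule on the same calls. Of 244 values of a heifer in an intermediate bin with at least 5 calls, 224 (91.8%) lay between 20% and 80%, as did 2671 of 2917 such values (91.6%) in the intermediate bins of the rest of chromosome 29. In 26 of the 39 bins with such a value in all heifers, all 6 lay there. Of the positions with at least 6 pooled mammary calls, a median of 73.2% per bin lay between 20% and 80% over 36 domain bins, and 66.7% did over 306 intermediate bins of the rest. The spread between heifers is given as the Pearson dispersion, which is 1 for counting error alone if all calls are independent. Neighbouring calls can come from 1 read, and heifers can cover different positions of a bin. A value above 1 therefore need not be variation between heifers. The dispersion had a median of 1.8 over the 41 bins, 1.45 over the other 1360 domain bins at 5% to 95% and 1.43 over the 539 intermediate bins of the rest.

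Among the 41 intermediate bins, chr29:49854000-49854999 varied least between heifers. It stood at 46.5%, 53.7% and 48.2% in IUCL-H 1 to 3 and at 45.2%, 47.3% and 46.5% in IUHT-H 1 to 3, each from 31 to 56 calls, a mean of 47.9% ± 3.0 (SD, n = 6) and a dispersion of 0.143. Lower dispersions occurred elsewhere, down to 0.0637 among intermediate bins of the rest and 0.0545 among other domain bins at 5% to 95%. In the bin at 49854000 no heifer stood apart and the groups overlapped. Of its 17 positions with at least 6 pooled calls, 13 lay between 20% and 80%. The bin chr29:49731000-49731999, named after its values were seen, varied almost as little, with 55.8%, 62.9% and 53.7% in IUCL-H and 56.8%, 60.7% and 59.3% in IUHT-H, and 13 of its 14 positions lay between 20% and 80%. The bin chr29:49858000-49858999, inside the same dip as the first, was wider, with 40%, 59.7% and 31.4% in IUCL-H and 38.5%, 41.7% and 45.7% in IUHT-H.

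The other named bins were those with the most calls in the tissue where they held fewer. At chr29:49771000-49771999 the heifers ranged from 51.8% to 74.3% with a median of 58.1%. At chr29:49968000-49968999 they ranged from 38.7% to 71.4%, and at chr29:50106000-50106999 from 35% to 63.0%. In these 3 bins every heifer lay between 20% and 80%, although the lowest and the highest heifer stood more than 20 points apart. At chr29:50181000-50181999 the range was 46.9% to 73.4%, over 20 to 91 calls per heifer. At chr29:50580000-50580999 it was 42.2% to 68.0%, over 45 to 74 calls. At chr29:50151000-50151999 it was 46.7% to 84.4%. The pair of bins at 50061000 and 50062000 spread furthest among the named bins, from 22.2% to 67.3% with a dispersion of 3.26 and from 29.1% to 75.5% with a dispersion of 6.13.

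**Figure D4:**
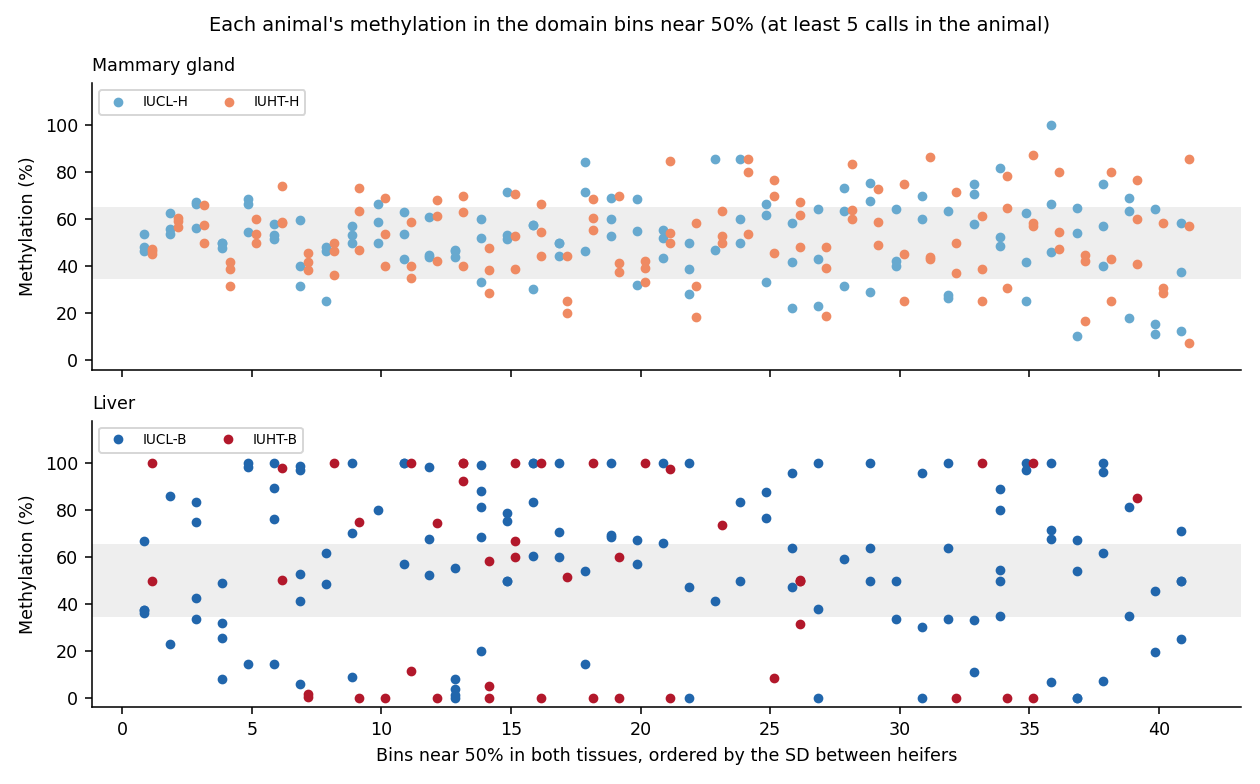
Methylation (%) of each heifer (top) and each calf (bottom) in the 41 intermediate bins, for animals with at least 5 calls in the bin, ordered along the x axis by the SD between heifers. Heifers lie mostly within 20 to 80% (224 of 244 values), whereas calves are spread from 0 to 100% (82 of 168 values within 20 to 80%).

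In liver, the pooled level near 50% was often a mixture of calves in opposite states. Of 168 values of a calf in an intermediate bin with at least 5 calls, 82 (48.8%) lay between 20% and 80% and 26.8% were at exactly 0% or 100%, against 0.41% of the heifers' values. In the intermediate bins of the rest of chromosome 29, 46.6% of 2095 calf values lay between 20% and 80% and 32.6% were at 0% or 100%. A single calf supplied more than 50% of the liver calls in 21 of the 41 bins. Of the 498 single positions with at least 6 calls in a calf inside these bins, 91.2% were at 0% or 100% and 5.42% between 20% and 80%, against 13.6% and 63.6% of 44 such positions in heifers. In some bins, calves with few calls stood at the level of a deep calf of their group. At 50061000, IUHT-B 3 was at 50.1% from 345 calls and IUHT-B 4 and 5 at 50% from 6 each. Elsewhere they did not, as at 50047000, with IUHT-B 5 at 0% from 71 calls and IUHT-B 3 at 60% from 5. Whether the calves' values are independent was not tested.

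At chr29:49858000-49858999, with 1473 liver calls, the calves with at least 10 calls stood at 98.8%, 6.02%, 96.9%, 41.5% and 53.0% in IUCL-B 1 to 5 and at 1.68% in IUHT-B 2 and 0.41% in IUHT-B 4. The pooled liver level of 51.9% was thus close to the level of a few calves only. At chr29:49854000-49854999 the calves agreed better. The deepest, IUCL-B 1 with 303 calls and IUCL-B 5 with 203, stood at 37.6% and 37.4%, IUCL-B 3 at 36.4% from 11 calls, IUCL-B 4 at 66.7% from 33, IUHT-B 4 at 50.0% from 32 and IUHT-B 2 at 100% from 18. At chr29:49731000-49731999 the pooled liver level of 63.3% came from 2 calves, IUCL-B 4 at 23.1% and IUCL-B 5 at 86.1%. Without IUCL-B 4 and 5, the wide libraries, 28 of 1153 domain bins with enough calls were intermediate (2.43%), against 2.84% of the rest. Of these 28 bins, 21 were among the 41 and 7 were not.

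Membership turned on values close to the limits. Just inside the upper limit stood the bins at 50117000, at 64.5% in liver, and at 50342000, at 63.6% in mammary gland, and just outside it those at 50727000, at 65.0% in liver (60% in mammary gland), and at 50175000, at 65.5% in mammary gland. At the lower limit, the bin at 50322000 was inside with 35.4% in mammary gland and the bin at 50010000 outside with 34.6%. In liver the bin at 50050000 was inside with 35.7% and the bin at 50738000 outside with 34.6%.

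The 23 unmethylated bins marked the opposite state in the same window. The deepest in liver, chr29:49956000-49956999, was at 0.488% from 2666 liver calls and at 4.96% from 363 mammary calls. Other well-covered ones were at 49264000 (7.64% in liver and 2.13% in mammary gland), 49369000 (5.30% and 3.83%) and 50770000 (0.855% and 4.99%). An unmethylated bin lay within 2 kb of 2 of the 41 intermediate bins (4.88%) and of 64 of the 1405 other bins (4.56%), so intermediate bins were about as often next to one as other bins were.

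In mammary gland, maternal heat stress was compared over the domain as a whole and bin by bin. The domain level was 82.0%, 81.4% and 78.4% in IUCL-H 1 to 3 and 78.0%, 80.8% and 80.2% in IUHT-H 1 to 3. The groups overlapped, and the mean difference of IUHT-H from IUCL-H was -0.933 points (79.7% ± 1.49 in IUHT-H against 80.6% ± 1.92 in IUCL-H, SD, n = 3 each). The exact permutation test gave p = 0.5, where 3 against 3 animals cannot go below 0.1. Relative to the rest of the chromosome in the same heifer, the difference was 0.371 points in the other direction.

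Bins were tested by limma on log2((methylated + 0.5)/(unmethylated + 0.5)) across all 198304 bins of the genome with at least 10 calls in every heifer, 1130 of them in the domain. At a Benjamini-Hochberg adjusted p of 0.05, limma called 0 of the 1130, and over all bins it called 0%. The smallest adjusted p in the domain was 0.967. At an unadjusted p under 0.05 limma gave 44 domain bins (3.89%), 27 lower and 17 higher in IUHT-H, beside 4.87% of all bins tested, 4823 lower and 4831 higher. edgeR called 0, and 0% of all bins, with 45 domain bins (3.98%) at an unadjusted p under 0.05 beside 4.12% of all bins. The logistic fit with overdispersion called 0, and 0% of all bins, with 17 domain bins (1.5%) beside 1.49%. The groups did not overlap in 109 domain bins (9.65%), 61 lower and 48 higher in IUHT-H, beside 9.64% of all bins, 9544 lower and 9579 higher. The split by direction was not tested.

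The bins with the smallest unadjusted p were named with their values. At chr29:50538000-50538999, which was nearly unmethylated in both tissues, the IUCL-H heifers stood at 16.7%, 16.1% and 10% and the IUHT-H heifers at 0%, 2.86% and 0%. limma gave it an unadjusted p of 0.000883, with an adjusted p of 0.967. The counts of 0 in 21 calls of IUHT-H 1 and 0 in 20 calls of IUHT-H 3 allow levels of up to 14.3% and 15.0%, within the range of the IUCL-H heifers. At chr29:50413000-50413999 the values were 87.8%, 94.6% and 93.7% in IUCL-H and 75.4%, 75.4% and 69.8% in IUHT-H, a difference of -18.5 points of the group means. At chr29:50206000-50206999 they were 98.9% ± 1.99 in IUCL-H and 83.7% ± 12.5 in IUHT-H (SD, n = 3 each). In the other direction, chr29:49125000-49125999 stood at 77.4% ± 21.0 in IUCL-H and 100% in all IUHT-H, chr29:49671000-49671999 at 81.7% ± 5.05 and 95% ± 1.45, and chr29:50773000-50773999 at 4.93% ± 3.39 and 15.6% ± 4.16. In all 6 bins the groups were apart, and in none did the difference pass the adjustment over the genome.

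The intermediate bins showed no common direction in mammary gland. Pooled by group, IUHT-H was higher than IUCL-H in 18 of the 41 bins and lower in 22, with a median difference of -0.648 points and a range from -23.7 to 24.2 points. Of the 41 bins, 24 held at least 10 calls in every heifer and were tested, and 0 had an unadjusted limma p under 0.05, beside 4.87% of all bins. The smallest was 0.137, at chr29:50061000-50061999, where IUHT-H stood 18.5 points above IUCL-H. The groups did not overlap in 1 of the 24, beside 9.64% of all bins. It was chr29:49771000-49771999, with 53.3%, 57.9% and 51.8% in IUCL-H and 58.3%, 74.3% and 58.6% in IUHT-H. At chr29:49854000-49854999 the groups differed by -3.15 points, 49.5% ± 3.73 in IUCL-H against 46.3% ± 1.07 in IUHT-H.

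In liver, the domain level of the calves was 83.5%, 82.7%, 83.7%, 81.8% and 79.7% in IUCL-B 1 to 5 and 81.5%, 72.9%, 77.6% and 80.3% in IUHT-B 2 to 5. IUHT-B 3 was the lowest, and the groups overlapped between 79.7% and 81.5%. The mean of IUHT-B was 4.20 points lower, a difference of -4.20 (78.1% ± 3.83, n = 4, against 82.3% ± 1.62, SD, n = 5). The exact permutation test gave p = 0.0476, and the adjusted p over the 6 exact tests was 0.0952. The test takes the calves as independent, which was not tested. With every position weighted alike the difference was -0.39 points (exact p = 0.73), and without IUHT-B 3 it was -2.47 points (exact p = 0.125). Relative to the rest of chromosome 29 in the same calf, the domain stood 5.61 points higher ± 0.772 in IUCL-B and -0.125 points ± 4.22 in IUHT-B, a difference of -5.73 points (exact p = 0.00794, the smallest possible). This setting was an alternative outside the 6 adjusted tests. The groups were barely apart, with the lowest IUCL-B calf, IUCL-B 2, at 4.855 points and the highest IUHT-B calf, IUHT-B 2, at 4.842 points. IUHT-B 3 was far lower, at -5.47 points. With every position weighted alike the same difference was -1.74 points (exact p = 0.0873). The number of covered positions moved with the group too, at 2437 to 23923 in IUCL-B and 972 to 3028 in IUHT-B, and its part in the difference was not tested. Without IUCL-B 4 and 5, whose libraries covered the most positions, the pooled difference was -5.22 points (exact p = 0.0571). The difference in liver minus that in mammary gland was -3.26 points (exact p = 0.239, group labels permuted within each tissue).

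**Figure D5:**
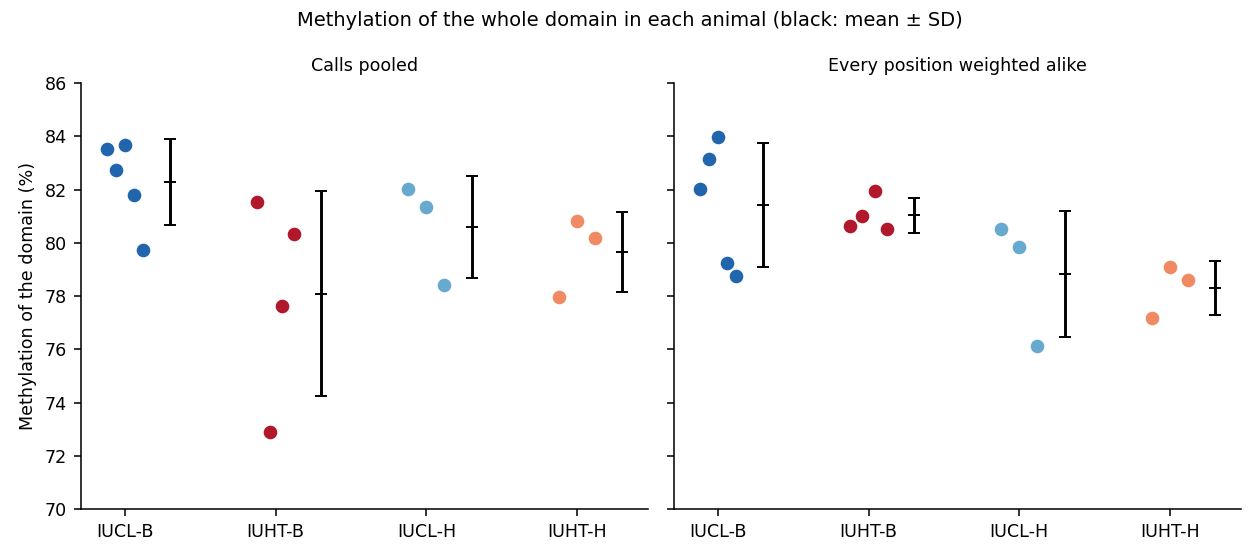
Methylation of the whole domain (%) in each animal by group, with calls pooled (left) and with every position weighted alike (right). Black marks are the mean ± SD over 5, 4, 3 and 3 animals, and the axis starts at 70%. IUHT-B calf 3 is the lowest at 72.9% on the left and lies within its group at 81% on the right.

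Few liver bins could be tested. Only 9 domain bins held at least 10 calls in all 9 calves, out of 2068 in the genome, and none of the 41 intermediate bins was among them. limma called 0 of the 9 at an adjusted p of 0.05, and 0% of all bins. At an unadjusted p under 0.05 it gave 2 of the 9, beside 10.9% of all bins. edgeR called 0 of the 9, beside 0.29% of all bins, with 2 at an unadjusted p under 0.05 beside 10.3%. The fit with overdispersion called 0 of the 9, beside 3.92% of all bins, with 3 at an unadjusted p under 0.05 beside 21.3%. The groups did not overlap in 1 of the 9, chr29:50081000-50081999, beside 4.69% of all bins. In the intermediate bins, the 29 with liver calls in both groups differed by -83.6 to 73.8 points, 14 higher and 15 lower in IUHT-B, and these values rest on few calves per bin.

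The liver bin with the smallest p was chr29:50081000-50081999. It was at 100% in all 5 IUCL-B calves and at 98.7%, 50.9%, 99% and 50.6% in IUHT-B 2 to 5. limma gave it an unadjusted p of 0.0342 and an adjusted p of 0.414. The values near 50% came from neighbouring positions in opposite states. In IUHT-B 3, position 50081542 was methylated in 80 of 80 calls and position 50081570 in 0 of 82, which allows up to 3.66%. In IUHT-B 5, position 50081542 was methylated in 85 of 85 calls and position 50081534 in 0 of 85, which allows up to 3.53%. IUHT-B 2 and IUHT-B 4 stood below 100% only through 1 unmethylated call at 50081534 and 1 at 50081570 in each calf. The lack of overlap between the groups in this bin rests on those single calls. The bin chr29:49929000-49929999 was higher in IUHT-B, at 97.5% ± 3.08 (n = 4) against 83.1% ± 13.3 (SD, n = 5), with an unadjusted limma p of 0.0342. At chr29:50067000-50067999 the calves stood at 72.6% ± 7.38 in IUHT-B and 88.3% ± 21.4 in IUCL-B. There, in IUHT-B 3, position 50067482 was methylated in 555 of 555 calls and position 50067491 in 0 of 555, which allows up to 0.541%. Bisulfite reads do not tell an unmethylated cytosine from a C-to-T sequence variant, and no genotypes were used here, so the values of 0% at such positions may be either. The remaining named liver bins, at 50438000, 49998000 and 50258000, differed by -3.59, 27.3 and 9.53 points, with unadjusted limma p-values of 0.152, 0.167 and 0.173.

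Single cytosines were tested by logistic regression where each animal of a tissue had over 10 reads, with a difference of at least 15 points and a q-value of 0.2 or less. In mammary gland 3 of 18486 tested positions lay in the domain, and 0 of the 3 was a differentially methylated cytosine, beside 1.54% of all tested positions. They were position 49683067, at 76.2% ± 13.2 in IUCL-H and 67.7% ± 4.63 in IUHT-H, position 49683088, at 98.1% ± 3.21 and 97.2% ± 4.81, and position 50084535, at 93.1% ± 8.07 and 92.5% ± 6.81 (SD, n = 3 each). The smallest unadjusted p among them was 0.386, from the logistic model fitted to each of the 18486 positions, so 0 had an unadjusted p under 0.05. limma called 0 of the 3, beside 0.00541% of all positions, with 0 at an unadjusted p under 0.05 beside 5.01%, and the fit with overdispersion called 0, beside 0% of all positions. In liver 0 of 900 tested positions lay in the domain, where 33.1% of all tested positions were called. Among positions with more than 10 reads in every heifer, 0 of the 3 in the domain and 120 of 1018 (11.8%) in the rest of chromosome 29 were intermediate in every heifer.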

How the data were processed

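CpG methylation was measured by RRBS in 9 livers and 6 mammary glands. The authors trimmed reads with Trim Galore, mapped them with Bismark and extracted calls per cytosine. The submitters' processing notes name UMD3.1, Trim Galore 0.4.4 and Bismark 0.17.0. The study's methods name another release of that assembly and other versions of both tools, and the notes were followed here. They deposited, per position and animal, the counts of methylated and unmethylated calls and the percent methylated, with no coverage filter. Positions are 1-based, and the strands of a CpG are listed apart. The percent matched the counts in every line.

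Counts were summed in 1 kb bins. The domain was compared with the rest of chromosome 29 by two-sided exact sign-flip tests over animals, and IUHT with IUCL by two-sided exact permutation tests of levels. Genome-wide bins (at least 10 calls in every animal) were tested by limma 3.58.1 with Benjamini-Hochberg adjustment, with edgeR 4.0.16 as an alternative (R 4.3.3), and positions by logistic regression with a likelihood-ratio test, after the study's methods. Scripts were tested on simulated data. Named bins were the 10 intermediate bins with the most calls in their shallower tissue, the 2 bins nearest each limit, and the 3 tested bins with the smallest p per direction and tissue. The members and lists were chosen with earlier results of these data known. Libraries held 307023 to 9753540 positions. Reads carried no molecular identifiers and may repeat 1 molecule, so limits cover counting error only. The labels give separate animals as replicates. Calf numbers are the labels' own, and heifers are numbered in record order. Equal calf numbers did not deviate together over 900 positions (r from -0.0564 to 0.107). Sequences and gene positions were not analysed here. Alternatives covered depth, limits, bin width, weights, tests, left-out animals and a replicate block.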

Additional observations from a re-analysis of the deposited data

Results flagged for a closer look

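Of 20 groups of calves examined for a calf far from the others, 4 values, from 3 calves, stood apart by Dixon's criterion at 95%. Its chance rate of about 1 in 20 groups holds for normally distributed values. The levels here were crowded or tied near 100%, so the 4 values are not set against that rate. All were in liver bins named as the 3 with the smallest p in a direction, among only 9 tested. The unadjusted limma p of these bins was 0.0513 at 50067000, 0.173 at 50258000 and 0.152 at 50438000. At chr29:50067000-50067999, IUCL-B 1 stood at 50.2% while the other IUCL-B calves stood between 94.7% and 100%. At chr29:50258000-50258999, IUCL-B 1 stood at 50.0% beside others between 91.3% and 100%, and IUHT-B 2 at 89.6% beside others at 100%. With all others tied at 100%, any other value of IUHT-B 2 would have been flagged. At chr29:50438000-50438999, IUCL-B 5 stood at 81.5% beside others between 96.2% and 100%. In IUCL-B 1 the value of 50.2% came from position 50067100, methylated in 134 of 134 calls, and position 50067102, methylated in 0 of 134, which allows up to 2.24%. These calves were kept in the main comparisons.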

How the results depend on the processing

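Depth limits most of these values, since a heifer's median position held 1 call and a calf's calls lay at few positions. The count of 41 intermediate bins became 21 with limits of 40% to 60%, 82 with limits of 30% to 70% and 27 in bins of 2 kb, and ranged from 32 to 44 without each animal in turn. The lower mammary share of bins near 50% ranged from -4.98 to -4.46 points without each heifer and the higher domain level from 6.99 to 7.35 points, where 5 heifers allow no exact p under 0.0625, and the share became 0.0134 points with 20 to 40 calls per bin, though -3.61 points with more than 40. The liver share turned to 0.0322 with at least 5 calls, 0.162 with limits of 30% to 70% and 0.584 with 20 to 40 calls, ranged from -0.438 to 0.0431 without each calf, and was -0.905 points with every position weighted alike (exact p = 0.0391). The higher liver level of the domain became 5.37 points with positions weighted alike (exact p = 0.00391) and 4.72 points without IUHT-B 3 and 5 (exact p = 0.0156), and ranged from 2.59 to 4.13 without each calf. The causes of these changes were not tested.

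The lower liver level in IUHT-B was -0.39 points with positions weighted alike, -1.74 points relative to the rest with positions weighted alike, -5.22 without IUCL-B 4 and 5, and -4.17 without the 10 deepest positions of each calf (exact p = 0.0238). It ranged from -5.35 to -2.47 without each calf, with exact p at or under 0.05 in 3 of 9. With a replicate block over calf numbers 2 to 5 it was -3.89 points (exact p = 0.25, smallest possible 0.125), and with the block limma called 0 liver bins of the domain, as without it. The block was not run for the level relative to the rest. The mammary level difference turned to 0.371 points relative to the rest and 0.026 points with positions weighted alike too, and ranged from -2.02 to -0.0908 without each heifer. With at least 5 reads, 2 of 49 mammary cytosines of the domain were called (4.08%, beside 1.18% of all tested), 50550667 (45.6% ± 27.1 in IUCL-H, 6.67% ± 11.5 in IUHT-H) and 50733987 (100% and 82.9% ± 9.71, SD, n = 3 each). With liver bins covered in at least 3 calves per group, the overdispersion fit called 1 domain bin of 98 (1.02%, beside 1.84% of all bins), chr29:50042000-50042999, at 74.5% to 100% in 4 IUCL-B and 100% in 3 IUHT-B calves, named after its values were seen, and limma called 0. Other counts of called bins and of called mammary cytosines were 0. No liver cytosine of the domain entered a test at any read minimum, so its counts of 0 show nothing.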

Other observations

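Bins with the most listed positions were more methylated in the domain than elsewhere on the chromosome. Over bins with more than 120 listed positions, the median level of the 33 domain bins was 69.7% in mammary gland and 78.2% in liver, whereas that of 125 bins of the rest was 20.6% and 20.3%. Over bins with 81 to 120 positions the medians were 84.3% and 77.7% in mammary gland and 91.8% and 79.2% in liver. Over bins with 21 to 40 positions the medians were 84.2% and 79.0% in mammary gland and 90.6% and 88.3% in liver. The large mammary contrast was thus in the class of more than 120 positions. Listed positions rise with coverage, which was higher in the domain, and are not a measure of CpG density. This contrast was noticed in the data and was not tested.

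Bins near 50% in mammary gland were spread over all liver states. Of the 162 such domain bins, 6 were under 10% in liver, 22 between 10% and 35%, 41 between 35% and 65%, 61 between 65% and 90%, and 32 at 90% or more. Mammary gland was lower than liver in 67.5% of the 1469 domain bins and in 66.9% of the bins of the rest of chromosome 29.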
